A study of Sus scrofa with 12 samples.

Results

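The miR-202 entries of the deposited small RNA profile were taken as all rows whose name is miR-202, with or without the pig prefix ssc and with any arm suffix. Of 1452 listed miRNAs, 5 met this rule: ssc-miR-202-5p, miR-202-x and miR-202-z, whose sequences belong to the 5p arm, and ssc-miR-202-3p and miR-202-y, whose sequences belong to the 3p arm. The entries were measured in testes of Hezuo (HZ) boars, a small native breed that matures early, and of Landrace (LC) boars, a larger breed that served for comparison. The 12 libraries form 4 groups of 3 replicates: 30 days old HZ (Ha), 120 days old HZ (Hb), 30 days old LC (La) and 120 days old LC (Lb). No treatment is named for any group, and the testes were taken by castration. The methods describe extraction of RNA from pooled samples, so a library may not stand for 1 boar and the SD is that between libraries.

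A miRNA gene is transcribed as a longer RNA and cut to a hairpin, from which one or both arms, named 5p and 3p after the end they lie on, are loaded into an Argonaute protein. Bases 2 to 8 of the loaded strand, the seed, pair with target mRNAs, so that the arms of one hairpin have different targets. miR-202 is known as a gonad miRNA of vertebrates. In the mouse testis it is made in Sertoli cells, the somatic cells that nurse the germ cells, downstream of the sex-determining factor SOX9, and it is also known to keep spermatogonial stem cells from differentiating too early.

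The 5 listed sequences are given 5′ to 3′ in DNA letters as deposited, because they show which entries could act on the same targets. Capitals mark the seed, bases 2 to 8.
ssc-miR-202-5p: tTCCTATGcatatacttcttt
miR-202-x: tTCCTATGcatatacttcttaa
miR-202-z: tTCCTATGcacatacttcttta
ssc-miR-202-3p: aGAGGTGTaggcatgggaa
miR-202-y: aGAGGTGTaggcatgggaaat
The entries of an arm thus had 1 seed, and none of the other listed miRNAs carried either seed. Counted from the 5′ end, miR-202-x differs from ssc-miR-202-5p by T21A and 1 further base at the 3′ end, and miR-202-z by T11C and 1 further base. The sequence of miR-202-y is that of ssc-miR-202-3p with 2 more bases, AT, at the 3′ end. No listed miRNA outside these entries lay within 3 edits of any of them.

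The 3p seed has the same leading 5 bases as the seed of the let-7 family, which is known for its rise during development and its action against growth genes, and the sequence of ssc-let-7a is given for comparison.
ssc-let-7a: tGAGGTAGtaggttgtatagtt
The last 2 of the 7 seed bases differ, so that let-7 and miR-202-3p are different seed families.

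In the RefSeq annotation of Sscrofa11.1, MIR202 lies on chromosome 14 from 141207134 to 141207213, a hairpin of 80 bases. It overlaps no other gene in that table, which gives bounds of genes and not their exons. Its neighbours are UTF1, a chromatin factor of pluripotent cells and spermatogonia, which ends 13725 bp before it, and ADAM8, a membrane metalloprotease, which starts 13964 bp after it. The nearest other miRNA gene, MIR9851, is 14190348 bp away, so miR-202 does not belong to a miRNA cluster.

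Depth was high for the main entries. The listed miRNAs took 6520197 to 16874633 counts per library, and in TPM, the authors' counts scaled to a common library total, 3 counts were worth 0.158 to 0.404. Replicates of a group differed by far more than their counting error, with a chi-square of at least 49.5 for each degree of freedom. Hb replicate 2 stood apart, with a TMM scaling factor of 0.694 against 0.910 to 1.195 in the other libraries. Levels of miRNAs that mark meiotic and haploid germ cells were low at 30 days and high at 120 days in both breeds, with values given after those of miR-202.

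The 5p arm was among the most abundant listed miRNAs in every group. By mean TPM over the 12 libraries, ssc-miR-202-5p was number 14 of the 1452, and within a library it was number 12 to 20. Expression was 20407, 17522 and 18320.3 TPM in Ha replicates 1 to 3 and 16604, 9077 and 15627 TPM in Hb. All 3 HZ libraries at 120 days were lower than all 3 at 30 days, as were 20.7% of all miRNAs tested, and Hb replicate 2 was the lowest of the 12. In LC boars it was 13888, 15826 and 14490.2 TPM in La and 22764, 16807 and 20641 TPM in Lb. Here every library at 120 days was higher than every library at 30 days, the reverse of HZ, as held for 36.3% of all miRNAs. In whole testis, fewer cells of a type and less RNA per cell cannot be told apart.

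Ordered by group mean, the level of ssc-miR-202-5p was 20071 ± 3019 TPM (SD, n = 3) in Lb, 18749.6 ± 1489.9 in Ha, 14735 ± 992 in La and 13769 ± 4093 in Hb. Lb and Ha overlapped, as did La and Hb, whereas Ha was above La without overlap, as for 16.7% of all miRNAs. None of the 4 comparisons passed the test for this entry, in which a change was called at a Benjamini-Hochberg adjusted p-value under 0.05 over all miRNAs tested by edgeR. The log2 fold change was -0.36 (standard error 0.217, adjusted p = 0.217, and -0.22 without Hb replicate 1) in Ha vs. Hb and 0.26 (0.107, adjusted p = 0.0746) in La vs. Lb. It was -0.26 (0.0954, adjusted p = 0.103) in Ha vs. La, where 0 of the 5 entries passed by edgeR, 3 had an unadjusted p-value under 0.05, 0 passed by DESeq2 and 11.3% of 1278 miRNAs were called. It was 0.27 (0.266, adjusted p = 0.588) in Hb vs. Lb, and 0.55 with scaling by library size. A positive value means that the group named last was higher.

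Scaling decided how the LC libraries were placed. With TMM-scaled CPM, the La libraries held 15922 to 19462 CPM and the Lb libraries 17334 to 22489, which overlap, while the HZ ages stayed apart at 20221 to 22268 in Ha and 14669 to 18621 in Hb. With scaling by library size alone, ssc-miR-202-5p rose in La vs. Lb, by 0.48 (adjusted p = 0.00461), and was lower in La than in Ha, by -0.36 (adjusted p = 0.0178). That scaling moved the median log2 fold change of all miRNAs tested from 0.32 to 0.54 in La vs. Lb and from -0.01 to -0.11 in Ha vs. La. The direction of ssc-miR-202-5p in these comparisons was the same with TMM, RLE and library size.

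The age effects of the breeds on ssc-miR-202-5p were set against each other in 1 fit over all 12 libraries. On the log2 scale the age effect was -0.36 in HZ and 0.20 in LC. The LC value minus the HZ value was 0.56 (standard error 0.225). Its unadjusted p-value by edgeR was 0.024 and its adjusted p was 0.156, so that the opposite directions seen in TPM were not called as a difference between breeds. Adjusted p ranged from 0.0910 to 0.281 under the other settings and from 0.107 to 0.369 when each library was left out in turn. In this fit 0 of the 5 entries passed by edgeR, 4 had an unadjusted p-value under 0.05, 1 passed by DESeq2 and 1.38% of all 1452 miRNAs were called.

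**Figure D1:**
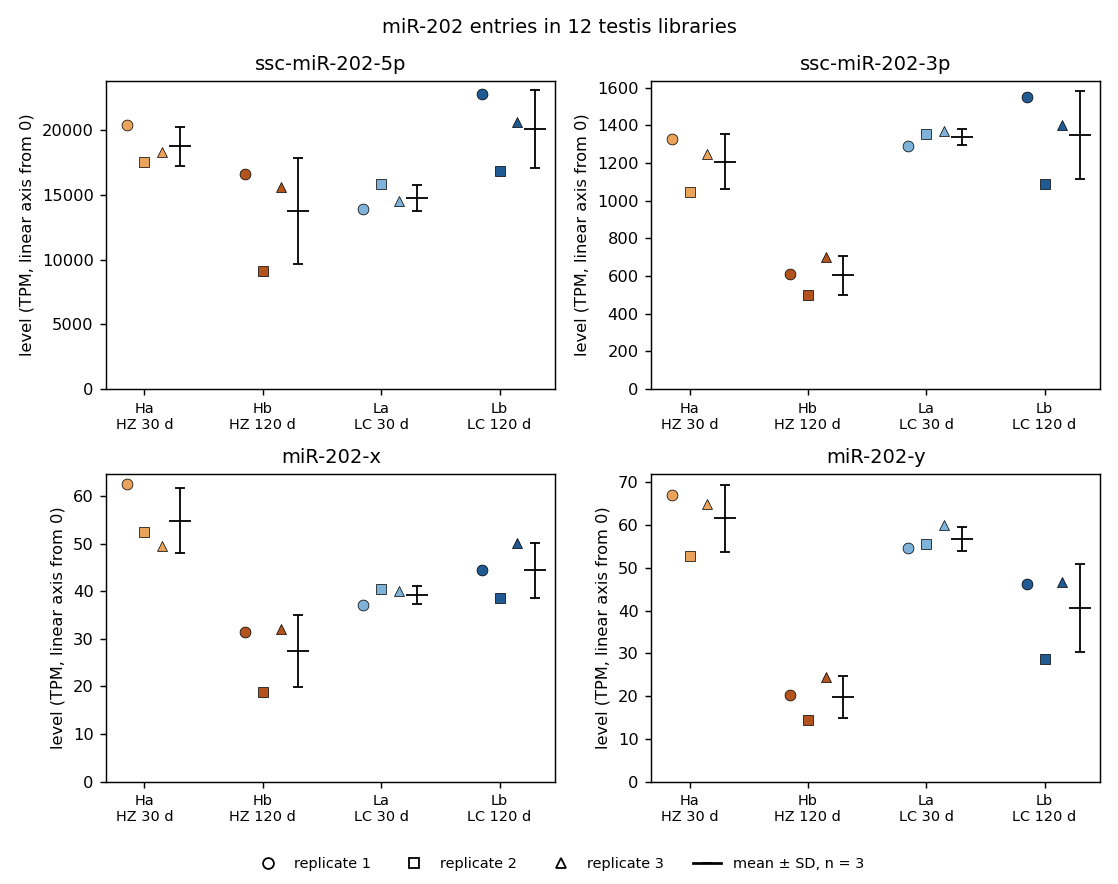
Expression of 4 miR-202 entries in TPM (vertical axes, linear from 0) in the 4 groups, with 1 symbol per library and mean ± SD (n = 3) beside them. The Hb libraries are the lowest group for ssc-miR-202-3p, at 498 to 702 TPM, and for miR-202-y, at 14.5 to 24.5 TPM, with no overlap with the other groups.

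The 3p arm fell with age in HZ boars, while its LC libraries overlapped between the ages. ssc-miR-202-3p was at 1329.5, 1046 and 1247 TPM in Ha and at 610.1, 498 and 702 TPM in Hb. The lowest Ha library was thus well above the highest Hb library. In LC boars it was at 1291, 1354 and 1372 TPM in La and at 1549, 1089.9 and 1402 TPM in Lb. The 3 Lb libraries lay on both sides of the La libraries.

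In the fit of Ha vs. Hb, ssc-miR-202-3p fell by 0.86 on the log2 scale (standard error 0.248, adjusted p = 0.0158 by edgeR). Of the 5 entries, 3 fell in this comparison and none rose, where 13.0% of all 1441 miRNAs tested were called lower and 34.3% in either direction. In TPM all 5 entries were lower in every Hb library than in every Ha library, which held for 20.7% of all miRNAs, and with TMM scaling miR-202-z overlapped. The call of ssc-miR-202-3p was lost without Ha replicate 1 (-0.77, adjusted p = 0.132), without Ha replicate 3 (-0.84, adjusted p = 0.0546) and without Hb replicate 1 (-0.60, adjusted p = 0.0596). In La vs. Lb its log2 fold change was -0.18 (standard error 0.116, adjusted p = 0.244), and with scaling by library size it was 0.044. The difference between the breeds in the age effect was 0.63 (standard error 0.259), with an unadjusted p-value of 0.0271 and an adjusted p of 0.166.

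Between the breeds, ssc-miR-202-3p overlapped at 30 days and was apart at 120 days in TPM. For Ha vs. La the groups were apart with TMM scaling (1208 to 1451 and 1479.9 to 1665 CPM), and the log2 fold change was 0.24 (standard error 0.105, adjusted p = 0.165 by edgeR), which was 0.14 without Ha replicate 2 and with scaling by library size. At 120 days every Lb library was above every Hb library, with group means of 1347 ± 234 and 603 ± 102 TPM (SD, n = 3). In TPM 4 of the 5 entries were apart in this way, against 18.6% of all miRNAs, and with TMM scaling ssc-miR-202-5p overlapped and 3 remained apart. The log2 fold change in Hb vs. Lb was 0.82 (standard error 0.273, adjusted p = 0.102) and did not pass, in a comparison where 0 of the 5 entries passed by edgeR or DESeq2, 2 had an unadjusted p-value under 0.05 by edgeR and 3.25% of 1444 miRNAs were called. It passed in the fit of all 12 libraries (0.88, adjusted p = 0.00933) and without Hb replicate 2 (0.99, adjusted p = 0.0446). The comparisons share libraries, so that the low level of Hb enters both Ha vs. Hb and Hb vs. Lb.

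The longer 3p form, miR-202-y, had the largest fall with age among the 5 entries in both breeds. It was at 66.9, 52.7 and 65.0 TPM in Ha and at 20.3, 14.5 and 24.5 TPM in Hb. In LC boars it was at 54.6, 55.5 and 60.0 TPM in La and at 46.3, 28.6 and 46.7 TPM in Lb. In each breed all libraries at 120 days were below all libraries at 30 days, which 14.0% of all miRNAs were in LC. It fell by 1.52 on the log2 scale in Ha vs. Hb (standard error 0.300, adjusted p = 0.00165 by edgeR) and by 0.67 in La vs. Lb (standard error 0.181, adjusted p = 0.0103).

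The fall of miR-202-y in HZ held in each of the 6 fits that left out 1 library, with adjusted p from 0.000128 to 0.00774. The fall in LC, the only call among the 5 entries in La vs. Lb (13.4% of 1446 miRNAs were called lower and 40.2% in either direction), was lost without La replicate 3 (-0.60, adjusted p = 0.0554) and with scaling by library size (-0.45, adjusted p = 0.0818). The age effects differed by 0.79 (standard error 0.327), with an adjusted p of 0.168. In Hb vs. Lb the groups did not overlap in TPM or with TMM scaling. With RLE-scaled counts they overlapped, at 178 to 276 in Hb and 271 to 414 in Lb. The log2 fold change of miR-202-y there was 0.73 (standard error 0.320, adjusted p = 0.210), which passed in the fit of all 12 libraries (0.77, adjusted p = 0.0431). The thresholds of the study's methods were more than 1 log2 unit in either direction at a p-value under 0.05 without adjustment. With these thresholds and TMM scaling, miR-202-y in Ha vs. Hb was the only call among the 5 entries in the 4 comparisons. These thresholds called 39.6% of all miRNAs in Ha vs. Hb (14.4% lower) and 32.1% in La vs. Lb. Between breeds they called 9.47% at 30 days and 16.8% at 120 days. With scaling by library size, ssc-miR-202-3p (1.17, unadjusted p = 0.00113 by edgeR) and miR-202-y (1.05, 0.0225) also met them in Hb vs. Lb. There 145 of 1444 miRNAs were called higher and 75 lower by these thresholds.

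The more abundant of the other 5p forms, miR-202-x, was at 62.6, 52.6 and 49.5 TPM in Ha and at 31.5, 18.8 and 32.0 TPM in Hb. Its HZ libraries did not overlap between the ages. It was at 37.1, 40.6 and 40.2 TPM in La and at 44.4, 38.7 and 50.1 TPM in Lb, with overlap. It fell by 0.90 in Ha vs. Hb (standard error 0.288, adjusted p = 0.0266 by edgeR) whereas its value in La vs. Lb was -0.01 (standard error 0.156, adjusted p = 0.983).

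The call of miR-202-x in HZ was lost without Ha replicate 1 (-0.79, adjusted p = 0.148), Ha replicate 2 (-0.91, 0.0883), Ha replicate 3 (-0.97, 0.0519) or Hb replicate 1 (-0.72, 0.0555), and with scaling by library size (-0.99, 0.0778). Its fold change thus stayed between -1.02 and -0.72 when a library was left out. At 30 days every La library was below every Ha library, and the fitted difference on the log2 scale was -0.39 (standard error 0.138, adjusted p = 0.0843), which passed with scaling by library size (-0.49, adjusted p = 0.0409). The age effects of the breeds differed by 0.84 (standard error 0.289), with an adjusted p of 0.113, which was 0.0233 with the Wald test of DESeq2.

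The remaining 5p form, miR-202-z, was rare. It was counted 14, 14 and 18 times in the Ha libraries, 6, 5 and 10 times in Hb, 15, 14 and 24 times in La, and 24, 12 and 17 times in Lb, or 0.545 to 1.67 TPM. None of its log2 fold changes in the 4 comparisons passed by edgeR, with standard errors of 0.322 to 0.522 and adjusted p-values of at least 0.371. It made up 0.00486 to 0.00940% of the 5p counts.

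**Figure D2:**
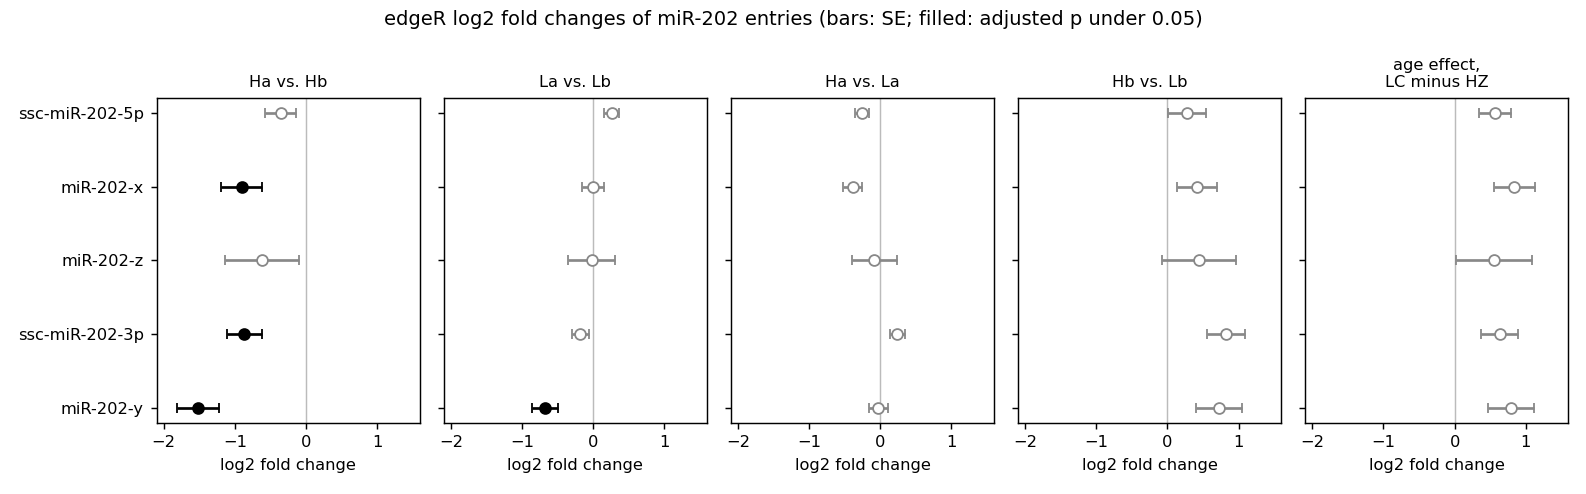
Log2 fold changes of the 5 entries (horizontal axes) by edgeR in the 4 comparisons and for the difference of the age effects (LC minus HZ). Bars are standard errors and filled points have an adjusted p-value under 0.05. Only Ha vs. Hb (3 entries) and La vs. Lb (miR-202-y) have filled points, and all 5 values of the difference of age effects lie above 0.

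Of all listed counts, the entries together took 2.27% ± 0.186 (SD, n = 3) in HZ at 30 days and 1.64% ± 0.491 at 120 days, and 1.81% ± 0.112 in LC at 30 days and 2.47% ± 0.381 at 120 days. The 5p arm held 91.0 to 96.3% of the miR-202 counts of a library. A ratio of entries within a library does not depend on the scaling between libraries. For this reason the ratio of the 5p arm to the 3p arm and the shares of miR-202-y and miR-202-x were compared directly, by exact permutation of the samples.

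The 5p to 3p ratio was higher at 120 days than at 30 days in both breeds, and higher in HZ than in LC boars at both ages. In HZ boars it was 14.7, 16.0 and 14.0 in Ha and 26.4, 17.8 and 21.6 in Hb. In LC boars it was 10.4, 11.3 and 10.1 in La and 14.3, 15.1 and 14.3 in Lb. The groups of each comparison did not overlap, whereas Ha and Lb did, so that LC boars at 120 days had a ratio within the range of HZ boars at 30 days.

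Over both breeds the ratio was 1.41-fold higher at 120 days, a log2 difference of 0.50, which was 0.54 in HZ and 0.46 in LC. The exact two-sided permutation test of age within breed gave p = 0.005, the smallest that its 400 relabellings allow (adjusted p = 0.0075 over 6 tests of ratios). Over both ages the ratio was 1.45-fold higher in HZ (log2 difference of LC minus HZ -0.53, exact p = 0.005, adjusted p = 0.0075), with -0.49 at 30 days and -0.57 at 120 days. Whether the age effect on the ratio differs between breeds was not tested. Using the ssc entries alone gave 0.48 for age and -0.54 for breed.

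A shift of the arm ratio with age was common in these libraries. Of 56 other pig miRNAs with both arms listed and at least 10 counts in every library, 41.1% had a permutation p-value under 0.05 for age, 28.6% with a higher and 12.5% with a lower ratio at 120 days. The median shift was 0.11 on the log2 scale, and 14 of the 56 pairs lay at least as far from 0 as miR-202. For breed, 21.4% passed, 7.14% in the direction of miR-202, and 11 of the 56 lay at least as far from 0. The arm shift of miR-202 is thus within the range of the other pairs for both factors.

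**Figure D3:**
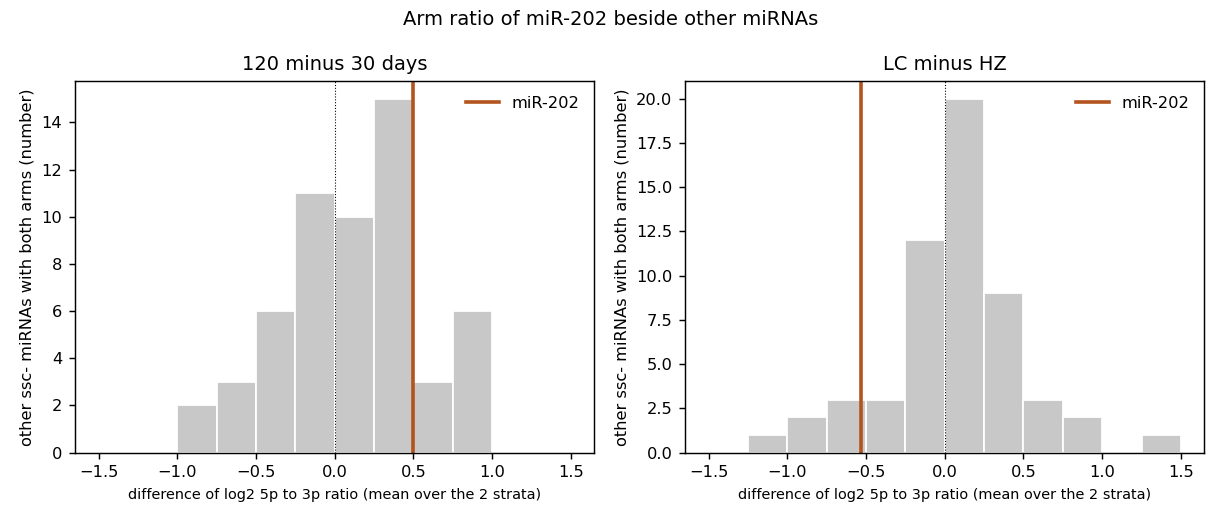
Differences in the log2 ratio of 5p to 3p counts for 56 other pig miRNAs (grey bars, number of miRNAs per bin) and for miR-202 (line), for age (left) and breed (right), each averaged over the strata of the other factor. The miR-202 line lies at 0.50 for age and -0.53 for breed, inside both distributions.

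The forms miR-202-y and miR-202-x became a smaller part of their arm with age in both breeds. miR-202-y made up 4.79, 4.79 and 4.95% of the 3p counts in Ha and 3.23, 2.83 and 3.37% in Hb. In LC boars its share was 4.06, 3.94 and 4.19% in La and 2.90, 2.56 and 3.22% in Lb. Each library at 120 days was below each library at 30 days, also across the breeds. The log2 ratio of miR-202-y to ssc-miR-202-3p differed by -0.58 between the ages (exact permutation p = 0.005, adjusted p = 0.0075), with -0.66 in HZ and -0.51 in LC.

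The share of miR-202-y was also lower in LC than in HZ boars, by -0.20 on the log2 scale (exact permutation p = 0.02, adjusted p = 0.024). At 30 days the breeds did not overlap (-0.27), whereas at 120 days they did (-0.12). Without Hb replicate 3 the difference was -0.17 with an exact p of 0.05, at the threshold.

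The 5p arm showed the same with age. miR-202-x made up 0.306, 0.299 and 0.270% of the 5p counts in Ha and 0.189, 0.206 and 0.205% in Hb. Its share was 0.266, 0.256 and 0.276% in La and 0.195, 0.230 and 0.242% in Lb. Within each breed the ages did not overlap, and the log2 ratio of miR-202-x to ssc-miR-202-5p differed by -0.40 (exact permutation p = 0.005, adjusted p = 0.0075), with -0.54 in HZ and -0.27 in LC. Between the breeds it differed by 0.01 (exact permutation p = 0.9).

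As a background, 82 other listed variants that share their leading 18 bases with 1 ssc entry were treated in the same way. The ratio of variant to ssc entry passed for age in 41.5% of them, 14.6% lower at 120 days, with a median of 0.05 on the log2 scale. Of these, 20.7% lay at least as far from 0 as miR-202-y. For breed 15.9% passed, 7.32% in the direction of miR-202-y, and 53.7% lay at least as far from 0. The deposited profile lists only chosen sequences, so that other lengths of miR-202 tags were not analysed here.

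**Figure D4:**
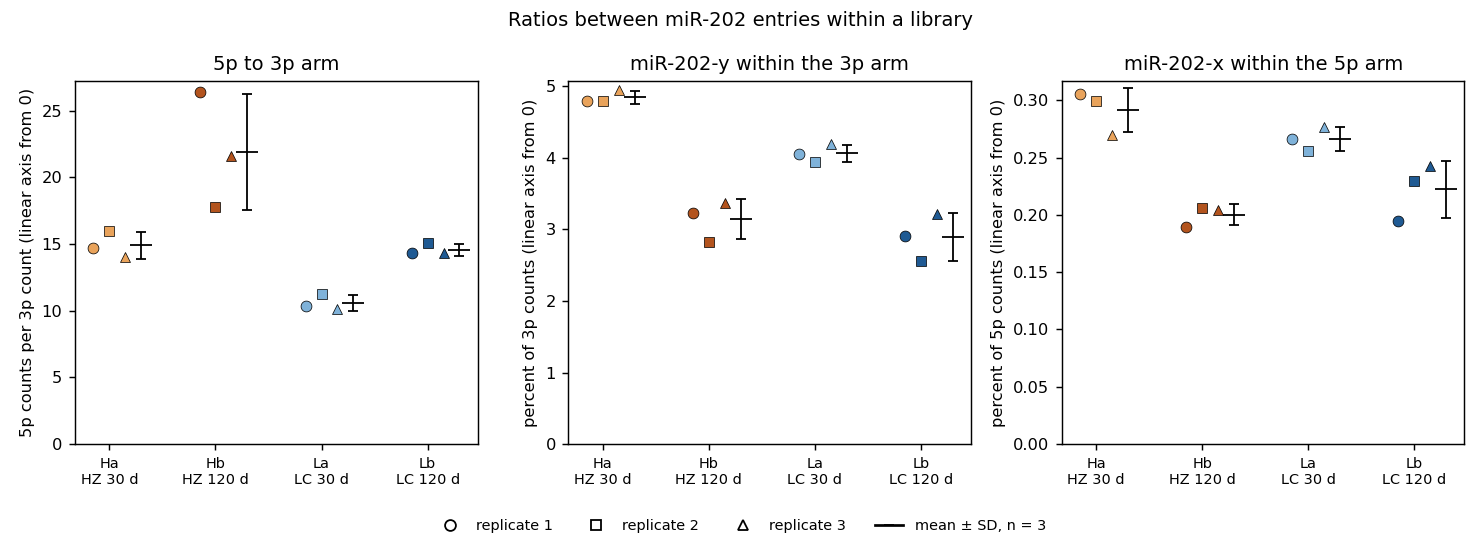
Ratios within a library (vertical axes, linear from 0): 5p counts per 3p count, miR-202-y as percent of 3p counts and miR-202-x as percent of 5p counts, with 1 symbol per library and mean ± SD (n = 3). The arm ratio runs from 10.1 to 26.4, and in each breed both shares are lower in all libraries at 120 days than in all at 30 days.

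Marker miRNAs of other cells moved with age. Their counts are read beside all miRNAs tested, of which 21.3% rose and 13.0% fell with age in HZ and 26.8% rose and 13.4% fell in LC. The summed level of the germ cell list, made up of ssc-miR-34c, miR-449-x, miR-449-y and miR-449-z, which accompany meiosis and spermatid formation, was 23.5 to 76.9 TPM in Ha against 2580.2 to 13177 TPM in Hb, and 16.6 to 24.6 TPM in La against 11279 to 13895 TPM in Lb. All 4 of its entries rose with age in both breeds. The names miR-34b, miR-449a, miR-449b and miR-449c of this list matched no listed entry.

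The miR-143 and miR-145 list of peritubular myoid and smooth muscle cells summed to 22030.0 to 36347 TPM in Ha and 58183 to 92499.6 in Hb. It summed to 20687 to 26749 TPM in La and 55596 to 65214 in Lb. In this list 6 of 9 entries rose in Ha vs. Hb and 8 of 9 in La vs. Lb. The list of miR-140, which is expressed with SOX9 in Sertoli cells and cartilage, summed to 1667.5 to 1802 TPM in Ha against 1869 to 2682 TPM in Hb, and 1849 to 1955 TPM in La against 1662 to 1774 TPM in Lb. In it 1 of 5 entries rose in Ha vs. Hb and 2 of 5 fell in La vs. Lb, where the rise in 1 of 5 is near the share of all miRNAs.

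The spermatogonial list of miR-21, miR-221, miR-222, miR-146a and miR-146b summed to 14783 to 18613 TPM in Ha against 7992.5 to 15117 TPM in Hb, and 14138 to 16963 TPM in La against 14985 to 19953 TPM in Lb. Of its 16 entries, 3 rose and 4 fell with age in HZ, and 1 rose and 6 fell in LC, the rises in HZ being near the share of all miRNAs. The red blood cell list summed to 1357 to 1768 TPM in Ha against 863 to 2298 TPM in Hb, and 2201 to 2468 TPM in La against 1220.0 to 1272 TPM in Lb. Of its 10 entries, 6 fell and 1 rose with age in LC, and 1 fell in HZ. The miR-126 list of endothelium summed to 12672 to 15839 TPM in Ha against 11458 to 12313 TPM in Hb, and 11712 to 13364 TPM in La against 8701 to 11243 TPM in Lb. Of its 4 entries, 3 fell with age in LC and 1 rose in HZ.

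The leukocyte list summed to 902 to 908 TPM in Ha against 355 to 763 TPM in Hb, and 1158 to 1250.3 TPM in La against 667 to 1057 TPM in Lb, with 1 of 7 entries falling with age in each breed, about the share of all miRNAs. The duct epithelium list summed to 82.6 to 98.0 TPM in Ha against 32.6 to 107 TPM in Hb, and 64.0 to 91.5 TPM in La against 60.5 to 168 TPM in Lb, with 1 of 6 entries rising in HZ and 2 in LC. The striated muscle list summed to 108 to 283 TPM at 30 days and to 453 to 839.99 TPM at 120 days, and 5 of its 9 entries rose in HZ and 7 in LC. In Ha vs. La, where 5.01% of all miRNAs were called higher and 6.34% lower, 5 of the 16 spermatogonial entries were higher and 1 lower in La, and 3 of the 10 red blood cell entries were higher and 1 lower. There 2 of the 4 germ cell entries and 1 entry each of the myoid, duct epithelium and striated muscle lists were lower in La, 1 leukocyte entry was higher, and the miR-140 and endothelium lists had no call. In Hb vs. Lb 1.11% of all miRNAs were called higher and 2.15% lower. The calls in these lists there were 1 endothelial entry lower and 1 striated muscle entry higher in Lb. The part of these lists in the values of miR-202 was not tested.

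The let-7 list was taken by name and holds 13 let-7 and miR-98 entries, of which 8 carry the let-7 seed shown above and 5, opposite arms or a shifted form, do not. The entries let-7-x, let-7-y and let-7-z, of which let-7-x has the seed, did not match a name of this list and are not in its counts. It summed to 111381 to 114646 TPM in Ha against 60773 to 95049.8 TPM in Hb, and 98044 to 111103 TPM in La against 90480.5 to 94568 TPM in Lb. Of the 8 with the seed, 3 fell with age in HZ and 4 in LC, and none rose, beside 13.0% and 13.4% of all miRNAs that fell. Outside the list, let-7-x fell by 0.61 in HZ (adjusted p = 0.0430) and by 0.34 in LC (adjusted p = 0.00862). The log2 ratio of let-7-z to ssc-let-7i-5p was higher at 120 days, by 0.60 in HZ and 0.50 in LC (exact permutation p = 0.005 over both). The log2 fold change of ssc-let-7i-5p itself was -0.43 in HZ and -0.62 in LC. ssc-let-7f-5p, ssc-let-7c and ssc-let-7e fell in both breeds, by 0.87, 0.69 and 0.74 on the log2 scale in HZ. The median log2 fold change of the 8 was -0.46 in HZ and -0.28 in LC, beside 0.32 in each breed over all miRNAs tested. Of the 5 without the seed, 0 fell in HZ and 1 fell in LC.

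The miRNAs whose pattern was most like that of the main entries were sought among miRNAs other than the miR-202 entries with a mean of at least 10 TPM, by Pearson correlation of log2(TPM + 1) over the 12 libraries. These values share library, scaling and group structure and are given as a description. For ssc-miR-202-5p the closest were ssc-miR-425-5p (r = 0.929), ssc-miR-505 (0.904), miR-216-x (0.898), ssc-miR-342 (0.891) and ssc-miR-664-3p (0.885). The mean level of ssc-miR-425-5p was 493 TPM in Lb, 399 TPM in Ha, 301 TPM in La and 297 TPM in Hb, the same order of groups as for ssc-miR-202-5p.

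For ssc-miR-202-3p the closest outside miR-202 were ssc-miR-10384 (r = 0.915), ssc-miR-130b-5p (0.904), ssc-miR-137 (0.890), miR-148-z (0.889) and ssc-miR-1306-5p (0.878). Group means of ssc-miR-130b-5p were 93.9 TPM in La, 84.7 TPM in Ha, 80.8 TPM in Lb and 37.8 TPM in Hb, with Hb the lowest as for ssc-miR-202-3p. The lists of the 2 arms had no miRNA in common. Between the arms themselves, ssc-miR-202-5p and ssc-miR-202-3p correlated at r = 0.663, less than ssc-miR-202-3p with miR-202-y (0.903) or ssc-miR-202-5p with miR-202-x (0.848). Other pairs across the arms were lower or as high. miR-202-y correlated at 0.570 with ssc-miR-202-5p and at 0.856 with miR-202-x. miR-202-z correlated at 0.846 with ssc-miR-202-3p and at 0.778 with ssc-miR-202-5p, the entry of its own arm.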

How the data were processed

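The authors filtered reads with fastp, removed tags of other non-coding RNAs and of exons, introns and repeats of Sscrofa11.1, aligned what was left against miRBase (bowtie) and took miRNA counts from miRDeep2. The deposited counts are raw whole tag counts per library. The deposited TPM divides each count by a library total, writes a count of 0 as 0.01 and was used for levels. The deposited length equals that of the listed sequence. The deposited table of predicted hairpins was not used.

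Counts were tested with edgeR 4.0.16 in R 4.3.3 (glmQLFit and glmQLFTest, TMM) over all miRNAs with at least 1 count in the 6 libraries compared, with Benjamini-Hochberg adjustment, after checks on simulated data. The standard error is the log2 fold change divided by the root of the F statistic. Ratios within a library were tested by exact permutation of ages within breeds or breeds within ages. Named miRNAs are the entries of miR-202, miRNAs with their seed, the 5 other miRNAs most correlated with each ssc entry, miR-202 entries left out, and members of marker lists. Members, lists and tests were chosen with earlier results of these data known. Alternatives were RLE, scaling by library size, DESeq2 1.42.0, filterByExpr, the replicate number as a block, merged entries, all 12 libraries in 1 fit and each library left out. Gene positions came from RefSeq. The p-values measure the spread between libraries, and counts without molecular identifiers are not independent molecules. RT-qPCR and target genes were not analysed here.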

Additional observations from a re-analysis of the deposited data

How the results depend on the processing

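For the 5 entries and the ratios, 145 of 159 refits under other settings kept direction and call, as did 228 of 252 that left out 1 library. With scaling by library size, ssc-miR-202-5p passed in La vs. Lb (0.48) and Ha vs. La (-0.36), and the La vs. Lb values of ssc-miR-202-3p (0.044), miR-202-x (0.21) and miR-202-z (0.21) changed sign, as did miR-202-x with filterByExpr (0.0066). With library size, miR-202-x also passed in Ha vs. La (-0.49), while miR-202-y in La vs. Lb (-0.45) and miR-202-x in Ha vs. Hb (-0.99) no longer did. In the fit of all 12 libraries ssc-miR-202-3p (0.88) and miR-202-y (0.77) passed in Hb vs. Lb, and with DESeq2 miR-202-x passed for the difference of age effects (0.76). Without a change of call by adjusted p, library size also moved ssc-miR-202-3p (1.17), miR-202-y (1.05), miR-202-x (0.71) and miR-202-z (0.74) in Hb vs. Lb. The differences of age effects moved as well, for ssc-miR-202-5p (0.91), ssc-miR-202-3p (1.03), miR-202-y (1.18), miR-202-x (1.20) and miR-202-z (0.92). The cause was not tested, beyond the shift in the median of all miRNAs given above. With the replicate number as a block, ssc-miR-202-5p passed in La vs. Lb (0.26, adjusted p = 0.0421) and miR-202-x no longer did in Ha vs. Hb (-0.91, adjusted p = 0.0556). Replicate numbers did not pair the libraries (correlation of deviations from -0.233 to 0.17), and permuting the arm ratio only between equal numbers gave exact p = 0.03125 for age and for breed, the smallest its 64 relabellings allow.

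With each library left out, ssc-miR-202-5p ranged from -0.46 to -0.22 in Ha vs. Hb. ssc-miR-202-3p ranged from -0.96 to -0.60 in Ha vs. Hb and from 0.65 to 0.99 in Hb vs. Lb, and ssc-miR-202-5p from 0.19 to 0.31 in La vs. Lb and from -0.33 to -0.20 in Ha vs. La. It passed in La vs. Lb without Lb replicate 2 and in Ha vs. La without Ha replicate 3, where miR-202-x also passed (-0.45). The breed difference ranged from -0.24 to -0.15 for the ratio of miR-202-y and from -0.025 to 0.054 for that of miR-202-x. Values near 0 that changed sign were miR-202-x in La vs. Lb (-0.072 to 0.040), and miR-202-y (-0.14 to 0.024) and miR-202-z (-0.21 to 0.033) in Ha vs. La. The arm ratio ranged from 0.43 to 0.57 for age and from -0.60 to -0.46 for breed. Counts of all miRNAs called varied widely. In Hb vs. Lb the count was 47, with 9 by library size, 120 by DESeq2, 138 with the block, 177 with all 12 libraries and 12 to 151 with a library left out (most without Hb replicate 1). In Ha vs. La it was 145, with 29 from all 12 libraries and 83 to 262 with a library left out (most without Ha replicate 3). For the difference of age effects it was 20, with 36 by RLE, 63 by filterByExpr, 121 by DESeq2, and 0 by edgeR with library size, where 306 had an unadjusted p-value under 0.05. With a library left out it was 0 to 168, with 168 without Hb replicate 1 and 0 by edgeR without La replicate 3 or Lb replicate 1, where 256 and 249 had an unadjusted p-value under 0.05. Leaving out Hb replicate 1 or 3 moved miR-202-z to -0.31 or -0.98 in Ha vs. Hb and to 0.21 or 0.80 in Hb vs. Lb, and its difference of age effects to 0.35 or 0.92. Counting error is largest for miR-202-z, with 5 to 24 counts per library.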
